A study of Mus musculus with 3 samples.

Results

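The AP-1 and immediate early genes described here are Fos, Fosb, Fosl2, Jun, Junb, Jund, Atf3, Egr1, Ier2 and Ier3. They were chosen by name, and the Ensembl identifiers of the expression values were matched to these symbols through GENCODE M21, an annotation of the mouse genome GRCm38. All 10 were among the 26655 genes measured, and all 10 reached at least 1 FPKM in at least 1 library, so none was lost to a filter on low values. FPKM is the number of sequenced fragments of a gene per kilobase of its exons and per unit of sequencing depth.

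RNA-seq was performed on G-MDSCs, the granulocytic myeloid-derived suppressor cells, from peripheral blood of C57BL/6J mice. Normal mice without a tumor gave 1 library, tumor-bearing mice gave 1 library after 2 weeks (2Ws) and 1 library after 3 weeks (3Ws). The tumors grew from B16F10, melanoma cells of C57BL/6 origin that were implanted under the skin of young adult mice. The labels give the cells as CD11b+Gr1+, sorted on magnetic columns, and the methods describe selection with an antibody to Ly6G, a surface protein of granulocytes, and state a high purity. The labels and the methods thus name the selection differently, and markers of B cells and monocytes were measured in each library, as given below. How many mice stand behind a library is not given in the sources used here, and 1 label field gives the tumor times in months where the descriptions give weeks. The title of the normal sample and the header of its value column also carry different sample numbers.

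AP-1 is a transcription factor made of pairs of basic leucine zipper proteins. A Jun protein (Jun, Junb or Jund) pairs with another Jun, with a Fos protein (Fos, Fosb, Fosl1 or Fosl2) or with a member of the ATF group such as Atf3, and the pair binds a short palindromic DNA element. Many of these genes are immediate early genes: they are transcribed within minutes of a stimulus from factors that are already in the cell, their mRNAs decay fast, and handling or warming of cells is also known to induce them. In neutrophils and related granulocytes they respond to cytokines, adhesion and microbial products.

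The recovered depth was 17325747 reads in the normal library, 16549246 at 2Ws and 17075753 at 3Ws. For all 10 genes, FPKM times exon length times depth gave whole reads in all libraries, to within 0.001 of a read. With 1 library per condition there is no replicate check, so no p-value is given between conditions, and every interval is an exact 95% interval of the read numbers (Clopper-Pearson for a fold, Poisson for a level) that covers counting error only. Differences are log2 ratios of FPKM plus 1, and a gene is called higher or lower where this ratio reached 2-fold and the gene had at least 1 FPKM in 1 of the compared libraries. The median log2 ratio of genes expressed in both libraries was near 0 for 2Ws against normal, -0.18 at 3Ws against normal and -0.16 at 3Ws against 2Ws, so that ratios at 3Ws carry this shift of the whole library. Fewer genes also reached 1 FPKM at 3Ws, with 9579 there, 10734 in the normal library and 10774 at 2Ws.

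The libraries also differed in markers of other cells. The summed FPKM of 10 B cell markers was 525 in the normal library, 671 at 2Ws and 122 at 3Ws, that of 14 monocyte and macrophage markers 476, 385 and 236, that of 7 MHC class II genes 1168, 903 and 259, and that of 10 platelet markers 173, 209 and 46.9. The sum of 12 neutrophil markers was 45738, 50072 and 68653, so the defining genes of granulocytes were present in each library. No marker of these 5 lists was at 0 in any library. Erythroid markers moved the other way, with a summed FPKM over 6 genes of 20.2, 8.54 and 97.0, and all 4 that could be tested were called higher at 3Ws in both comparisons, with median log2 ratios of 2.04 against normal and 2.89 against 2Ws. Ddx3y, a gene of the Y chromosome, had 19.9, 0 and 23.1 FPKM in the normal, 2Ws and 3Ws libraries, and Xist had 0.00966, 24.7 and 0, although the methods of the study name female mice for the implanted tumors. The normal and 3Ws libraries were alike in these genes and the 2Ws library was not, so in comparisons with 2Ws the condition and the sex of the mice cannot be told apart. In such bulk samples, fewer cells of a type and less RNA per cell cannot be told apart either.

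Fos and Junb were the most abundant of the 10 genes in each library, and Egr1 and Fosb the least abundant. Fos and Junb together held 68.7% of the summed FPKM of the 10 genes in the normal library, 73.0% at 2Ws and 68.3% at 3Ws, while the sum itself was 995, 1006 and 1122 FPKM. The order in normal mice ran from Junb through Fos, Ier2, Fosl2, Atf3, Ier3, Jund, Jun and Fosb to Egr1, and only the neighbours Ier3 and Jund had overlapping counting intervals. At 2Ws the order was Fos, Junb, Ier2, Fosl2, Ier3, Atf3, Jund, Jun, Fosb and Egr1. Intervals overlapped for the neighbours Ier2 and Fosl2, Ier3 and Atf3, and Atf3 and Jund, and also for Ier3 and Jund. At 3Ws the order was Fos, Junb, Fosl2, Ier3, Ier2, Jund, Jun, Atf3, Egr1 and Fosb, and the intervals of Fos and Junb and those of Egr1 and Fosb overlapped. In this order Ier3 held rank 6 in normal mice and rank 4 at 3Ws, and Atf3 rank 5 and rank 8.

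**Figure D1:**
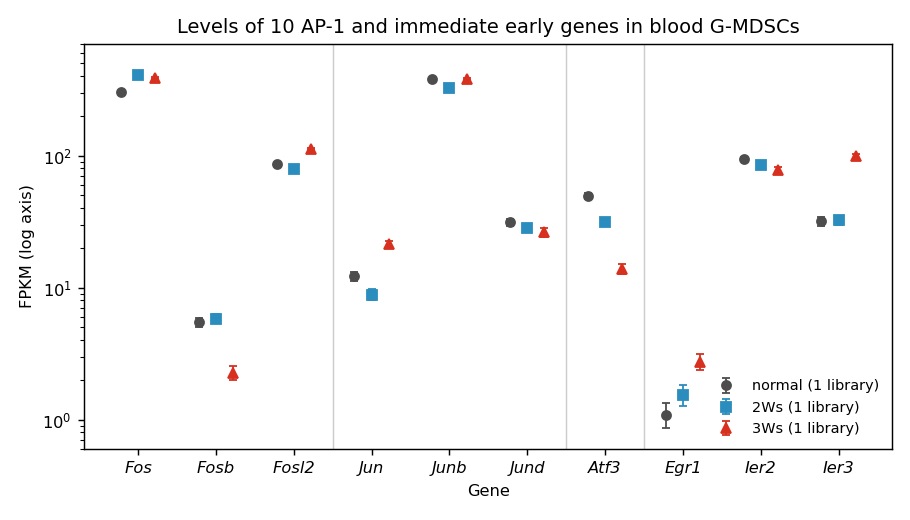
FPKM of the 10 genes on a log axis, with 1 point per library (circle normal, square 2Ws, triangle 3Ws) and exact 95% Poisson intervals of the reads as bars; vertical lines separate Fos genes, Jun genes, Atf3 and the other immediate early genes. Ier3 lay at 31.8 and 32.3 FPKM in normal mice and at 2Ws and at 98.4 at 3Ws, whereas Atf3 went from 49.5 to 31.1 and 13.9.

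The genes are short and simple. Their median span on the genome was 3809.5 bases with 2 exon blocks (exons merged over transcripts), against 22518.5 bases and 10 exon blocks over 9392 protein-coding genes with at least 1 FPKM in a library, and 9 of the 10 spanned less than that median. Their 3′ UTRs often held ATTTA, the core of AU-rich elements that mark short-lived mRNAs: 9 of the 10 had at least 1 copy, against 69.1% of 9364 coding genes with at least 1 FPKM, and Ier2 had none. Ier3 had 5 copies in 613 bases, or 8.16 per kilobase, a density above that of 98.7% of genes. Fos had 4 copies in 815 bases, and its density was above that of 94.2% of genes. The densities of Junb, Jun and Atf3 were above those of 91.1%, 83.9% and 75.0% of genes. Those of Jund, Fosl2 and Egr1 were nearer the middle, above 63.3%, 60.2% and 58.6%, and that of Fosb was above 33.0%. The longer element TTATTTATT was found in Fos and Fosl2, and in 7.68% of genes. The 27 bases with most copies are shown for Fos (chr12:85477097-85477123, plus strand) and Ier3 (chr17:35822479-35822505, plus strand), which had the most copies per kilobase of the 10, as read from GENCODE M21 transcripts of GRCm38, with ATTTA in capitals.
Fos: ttattgtgttttcaATTTATTTAttaa
Ier3: cgtgtctaattaatATTTAtgtATTTA

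Sequence before a RefSeq transcription start was matched for 8 of the 10 genes in the RefSeq windows of GRCm38.p6, which hold 32851 windows of 27025 genes. RefSeq and GENCODE starts differ for some of the 8. The window of Fosl2 lies within annotated exon of that gene. That of Jund ends at chr8:70697738, well before the GENCODE start of the gene at 70698949. For such genes, a motif absent below was not searched before the GENCODE start. The motifs below were picked after the windows had been read, all were searched on both strands over the 250 bases before the RefSeq start, except TATAA on the strand of the gene, and a match is a description of letters only. The core of the cAMP response element, TGACG, was found in 4 of the 8 (Fos, Fosb, Junb and Atf3) and in 17.8% of all windows, and the full element TGACGTCA was in none of the 8 and in 1.55% of windows. The AP-1 element TGANTCA was in none of the 8 and in 6.75% of windows. Jun held TGACATCA, the variant through which human JUN is known to act on its own promoter, from 45 to 38 bases before the start, and 2.93% of windows did. Atf3 held TTACGTCA from 10 to 3 bases before the start, found in 0.447% of windows and overlapping a TGACG on the other strand. A MEF2 element was found in Jun and Atf3 and in 0.508% of windows. Ier3 held GGAATTTCC, an NF-kB type element, from 139 to 131 bases before the start, and 0.286% of windows did. The CArG box that serum response factor binds was in none of the 8 and in 1.47% of windows. Bases further upstream were not searched, and Egr1 and Ier2 had no window. Whether CArG boxes lie there was not examined. TATAA was found in Fos and Ier3 and in 16.0% of windows. The windows of the 4 genes that passed the 2-fold rule in any comparison and of Fos are shown 5′ to 3′ with these motifs other than TATAA in capitals: Fos (chr12:85473740-85473889, plus strand), Fosb (chr7:19310046-19310195, minus strand), Jun (chr4:95052223-95052372, minus strand), Atf3 (chr1:191183334-191183483, minus strand) and Ier3 (chr17:35821534-35821683, plus strand). The window of Ier3 ends 30 bases before the RefSeq start, where the GENCODE transcript begins, and the others end at the RefSeq start. For Atf3 that start is internal to the GENCODE gene (chr1:191170296-191218039), so its motifs do not lie before the outermost GENCODE start.
Fos: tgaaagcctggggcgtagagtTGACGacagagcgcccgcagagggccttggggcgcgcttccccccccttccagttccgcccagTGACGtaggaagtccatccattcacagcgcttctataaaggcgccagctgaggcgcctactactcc
Fosb: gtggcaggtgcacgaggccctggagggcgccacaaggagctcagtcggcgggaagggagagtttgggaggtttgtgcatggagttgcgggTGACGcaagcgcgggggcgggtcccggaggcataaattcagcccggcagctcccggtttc
Jun: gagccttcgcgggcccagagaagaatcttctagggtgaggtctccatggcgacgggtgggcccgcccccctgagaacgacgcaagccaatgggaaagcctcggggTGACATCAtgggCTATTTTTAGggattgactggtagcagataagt
Atf3: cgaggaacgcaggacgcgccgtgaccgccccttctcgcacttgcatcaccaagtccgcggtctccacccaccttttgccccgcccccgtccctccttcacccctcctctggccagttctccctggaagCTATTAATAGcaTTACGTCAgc
Ier3: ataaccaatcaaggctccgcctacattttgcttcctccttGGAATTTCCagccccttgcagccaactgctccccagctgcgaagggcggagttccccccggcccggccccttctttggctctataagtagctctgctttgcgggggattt

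The comparisons asked how the 10 genes differed between the G-MDSC libraries of normal mice and of tumor-bearing mice at 2Ws and 3Ws. At 2Ws against normal, 0 of the 10 genes were at least 2-fold higher and 0 were at least 2-fold lower, where 1.29% of the 11269 genes tested were called higher and 1.22% lower. The log2 ratios of the 10 genes ran from -0.65 for Atf3 to 0.42 for Fos with a median of -0.12, beside a median of 0.00 over all genes tested. At 3Ws against normal, 1 of the 10 was called higher (Ier3) and 1 lower (Atf3), where 2.60% of 11103 genes were higher and 7.89% lower. Their median was 0.17, beside -0.24 over all genes tested. At 3Ws against 2Ws, 2 of the 10 were called higher (Ier3 and Jun) and 2 lower (Atf3 and Fosb), where 2.00% of 11119 genes were higher and 7.37% lower. The median was 0.07 beside -0.21. The comparisons share libraries with each other, so they are not independent.

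**Figure D2:**
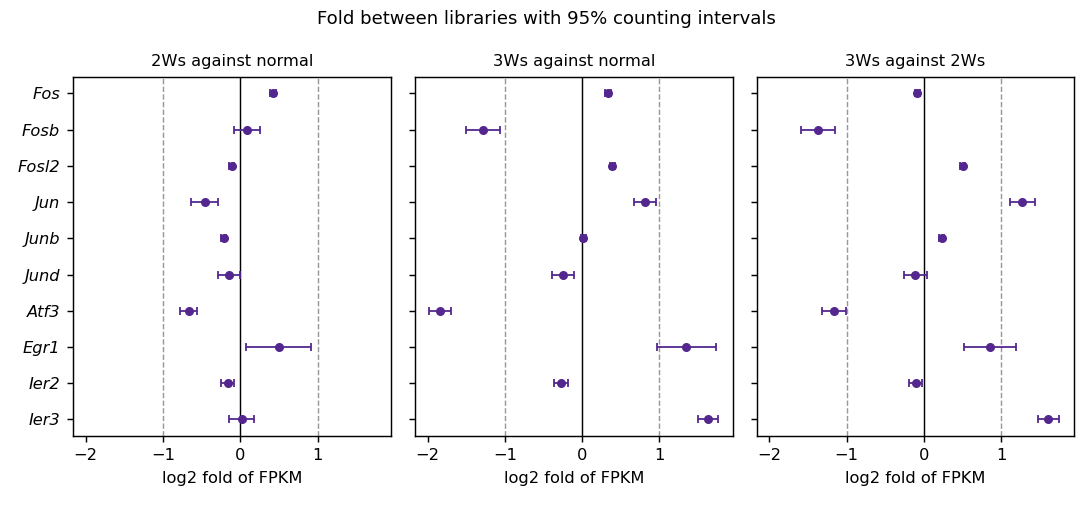
Fold of each gene between libraries on a log2 axis, computed from recovered reads without a pseudocount, with exact 95% counting intervals; dashed lines mark 2-fold. In 2Ws against normal no interval reached either dashed line, and at 3Ws Ier3 lay above 2-fold and Atf3 and Fosb below in both comparisons.

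Fos, whose protein is the classical partner of Jun in AP-1, lies on chr12:85473890-85477273 and had 305 FPKM in the normal library, 408 at 2Ws and 384 at 3Ws, from 12416, 15879 and 15432 reads. It was lowest in the normal library and ranked 121 among all genes there, 75 at 2Ws and 87 at 3Ws. The fold over normal was 1.34 (95% interval 1.31 to 1.37) at 2Ws and 1.26 (1.23 to 1.29) at 3Ws, under the 2-fold rule. Between 3Ws and 2Ws the log2 ratio was -0.09 as deposited and 0.08 once ratios were centred on all genes, so no direction is given for it.

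Fosb encodes a Fos protein with a transactivation domain. It lies on chr7:19302696-19310051 and had 5.46 FPKM in the normal library, 5.81 at 2Ws and 2.25 at 3Ws, from 591, 600 and 240 reads. The normal and 2Ws libraries were close, and the 3Ws library was lower than both. The marker sums of B cells (525, 671 and 122 FPKM) and platelets (173, 209 and 46.9 FPKM) were also lowest at 3Ws. Those of neutrophils and erythroid cells were highest there, and the part of these lists in the level of Fosb was not tested. The 3Ws level was 2.58-fold lower than that at 2Ws (95% interval 2.22 to 3.01) and 2.43-fold lower than normal (2.09 to 2.83). On the scale of FPKM plus 1 its log2 ratios were -1.07 and -0.99, so the first passed the 2-fold rule and the second fell just short of it. After centring on all genes, the ratio at 3Ws against 2Ws was -0.90 and Fosb was no longer called.

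Fosl2 (Fra-2), a Fos protein without that domain, lies on chr5:32135801-32157842 and had 85.9 FPKM in the normal library, 79.6 at 2Ws and 113 at 3Ws. It was highest at 3Ws, 1.42-fold (95% interval 1.38 to 1.45) over 2Ws and 1.31-fold (1.28 to 1.34) over normal. Fosl1 (Fra-1), which was not among the 10 genes, was low, with 0.203, 0.319 and 0.206 FPKM. Within the Fos family, Fos held 76.9% of the summed FPKM in the normal library, 82.6% at 2Ws and 76.9% at 3Ws, Fosl2 21.7%, 16.1% and 22.6%, and Fosb 1.38%, 1.18% and 0.451%. Fosl2 stood at 15.7 times the level of Fosb in normal mice, 13.7 times at 2Ws and 50.1 times at 3Ws.

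Jun, the founding AP-1 protein and a target of the JNK kinases, is a single-exon gene on chr4:95049034-95052222. It had 12.2 FPKM in the normal library, 8.85 at 2Ws and 21.4 at 3Ws, from 674, 467 and 1166 reads. The 2Ws library was the lowest and the 3Ws library the highest of the libraries. The 3Ws level was 2.42-fold higher than that at 2Ws (95% interval 2.17 to 2.70), a ratio exceeded by 1.34% of the genes tested, and 1.76-fold higher than normal (1.60 to 1.93). The antisense gene Junos, which shares bases with Jun on the other strand, had 0.659, 0.763 and 0.654 FPKM, and reads of the pair cannot be told apart because the use of strand is not given in the sources used here.

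Junb, an AP-1 subunit that restrains myeloid expansion in mice, lies on chr8:84974484-84978718 and had 379 FPKM in the normal library, 326 at 2Ws and 382 at 3Ws. The normal and 3Ws libraries were nearly equal, with a fold of 1.01 (95% interval 0.986 to 1.03) and a log2 ratio of 0.01 that was 0.19 after centring, and 2Ws was 1.16-fold lower than normal (1.13 to 1.19). Prdx2 overlaps it on the other strand and had 4.56, 3.47 and 1.57 FPKM. Jund, the AP-1 subunit that is least inducible in most cells, is a single-exon gene on chr8:70698949-70700616 and had 31.1, 28.2 and 26.1 FPKM. Its log2 ratio at 3Ws was -0.25 against normal and -0.11 against 2Ws as deposited, and -0.06 and 0.06 after centring on all genes. Junb held 89.7%, 89.8% and 88.9% of the summed FPKM of the Jun family in the normal, 2Ws and 3Ws libraries, and Jun 2.89%, 2.44% and 4.98%. The level of Fos was 24.98 times that of Jun in normal mice, 46.1 times at 2Ws and 17.9 times at 3Ws.

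**Figure D3:**
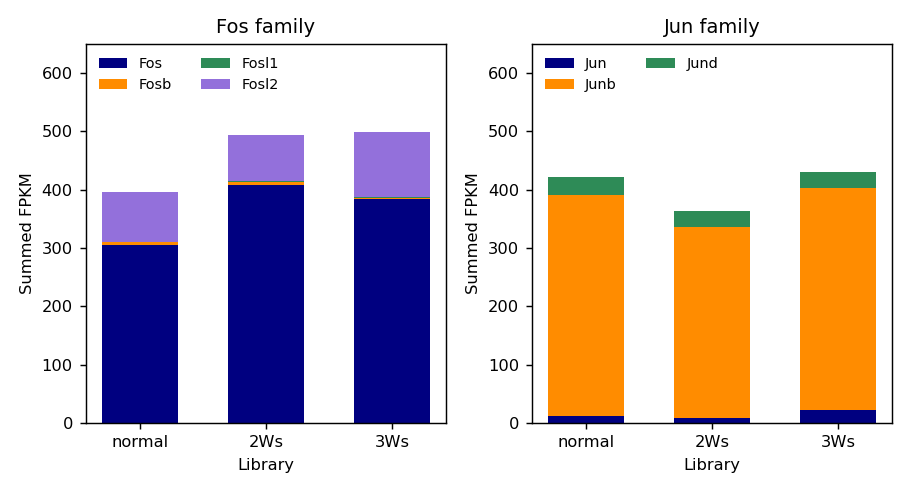
Summed FPKM of the Fos family (left) and the Jun family (right) in each library, with 1 color per gene stacked from 0; there is 1 library per bar and no error bar. Fos and Junb make up most of each bar, and the sum of the Fos family over that of the Jun family was 0.939 in the normal library, 1.36 at 2Ws and 1.16 at 3Ws.

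Atf3, a stress-induced ATF protein known to repress inflammatory genes in myeloid cells, lies on chr1:191170296-191218039. It had 49.5 FPKM in the normal library, 31.1 at 2Ws and 13.9 at 3Ws, from 1846, 1109 and 510 reads. The libraries stood in the order normal, 2Ws, 3Ws, and no counting intervals overlapped. Against normal, the level was 1.59-fold lower at 2Ws (95% interval 1.48 to 1.71) and 3.57-fold lower at 3Ws (3.23 to 3.94), where 1.08% of the genes tested had a lower ratio. Between 2Ws and 3Ws it was 2.24-fold lower (2.02 to 2.50), but after centring on all genes that log2 ratio was -0.95 instead of -1.11 and passed the rule no longer. The summed FPKM of monocyte and macrophage markers went 476, 385 and 236 across the same libraries, with 11 of the 14 markers called lower at 3Ws against normal, and that of 13 heat shock and chaperone genes 375, 332 and 264, with 3 of the 12 tested called lower. Their part in the level of Atf3 was not tested.

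Ier3 (IEX-1), an immediate early protein that acts on survival signaling and is induced through NF-kB, lies on chr17:35821684-35822923. It had 31.8 FPKM in the normal library, 32.3 at 2Ws and 98.4 at 3Ws, from 624, 604 and 1900 reads. Normal mice and 2Ws did not differ beyond counting error, with a fold of 1.01 (95% interval 0.905 to 1.14). The 3Ws library was 3.09-fold higher (2.82 to 3.39) than normal and 3.05-fold higher (2.78 to 3.35) than 2Ws. The log2 ratio of 1.60 over normal ranked 81 among 11103 genes tested, and the ratio of 1.58 over 2Ws ranked 62 among 11119. The summed FPKM of neutrophil markers was also highest at 3Ws, with 2 of the 12 called higher and 2 lower against normal. Erythroid markers were highest at 3Ws as well (20.2, 8.54 and 97.0 FPKM in sum), and the part of either list in the levels of Ier3 and Jun was not tested.

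Egr1, a zinc finger factor that is induced through serum response factor and ERK, lies on chr18:34859823-34864984 and was the least abundant of the 10 genes in normal mice, with 1.08 FPKM there, 1.52 at 2Ws and 2.74 at 3Ws. These values rest on 84, 113 and 210 reads. The fold of 3Ws over normal was 2.54 (95% interval 1.96 to 3.31), yet on the scale of FPKM plus 1 the log2 ratio was 0.85 and did not pass the rule. With a pseudocount of 0.5 or 0.1, or after centring, Egr1 was called higher. Ier2, a single-exon immediate early gene on chr8:84661331-84662852, had 94.3, 84.1 and 78.1 FPKM. Its log2 ratio at 3Ws was -0.27 against normal and -0.11 against 2Ws as deposited, and -0.09 and 0.06 after centring on all genes.

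Other genes of the pathway gave a background to these values. Of 18 further Fos, Jun, ATF, MAF and BATF genes, 17 could be tested at 3Ws against normal, with a median log2 ratio of -0.08. Of these, 0 were called higher and 1 lower. Against 2Ws, 0 of 16 were called higher and 1 lower. After centring, 0 were called lower in either comparison. The most abundant genes of this list, Atf4 of the integrated stress response and Atf1 of the CREB group, had 56.8, 59.3 and 51.2 FPKM and 37.7, 42.5 and 45.3 FPKM.

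Among 41 other immediate early genes, 33 could be tested at 3Ws against normal, 2 were called higher and 2 lower, and the median log2 ratio was 0.10. Socs3, the feedback inhibitor of cytokine signaling through STAT3, had 166, 136 and 338 FPKM so that 3Ws stood 2.04-fold above normal (95% interval 1.99 to 2.09). Zfp36l1, a protein that binds AU-rich elements and promotes mRNA decay, had 13.4, 12.4 and 27.9 FPKM and was 2.09-fold higher (1.91 to 2.30). Both lay at the edge of the rule: with hemoglobin, immunoglobulin and mitochondrial genes left out, their log2 ratios against normal were 0.99 for Socs3 and 0.98 for Zfp36l1, and 0 genes of the list were called higher. Per1, a clock gene that glucocorticoids also induce, had 20.99, 14.6 and 36.5 FPKM and was called higher at 3Ws against 2Ws, by 2.51-fold (2.36 to 2.67). Like Jun, Socs3, Zfp36l1 and Per1 had their lowest FPKM at 2Ws, the library that differed in Xist and Ddx3y, and their highest at 3Ws.

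The immediate early genes called lower at 3Ws against normal were Myc, a regulator of growth, with 6.61, 7.05 and 1.51 FPKM, and Klf4, a factor of monocyte differentiation, with 7.10, 4.52 and 2.17 FPKM. Myc was 4.38-fold lower (95% interval 3.37 to 5.76) and Klf4 3.27-fold lower (2.64 to 4.07). The B cell marker sum was also lowest at 3Ws, with 9 of 10 markers called lower against normal, as was that of monocytes and macrophages, and their part in these genes was not tested. The most abundant genes of the list were Mcl1, a survival protein with a short-lived mRNA, with 1008, 1043 and 1276 FPKM, and Btg1, an antiproliferative gene, with 325, 336 and 343 FPKM.

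**Figure D4:**
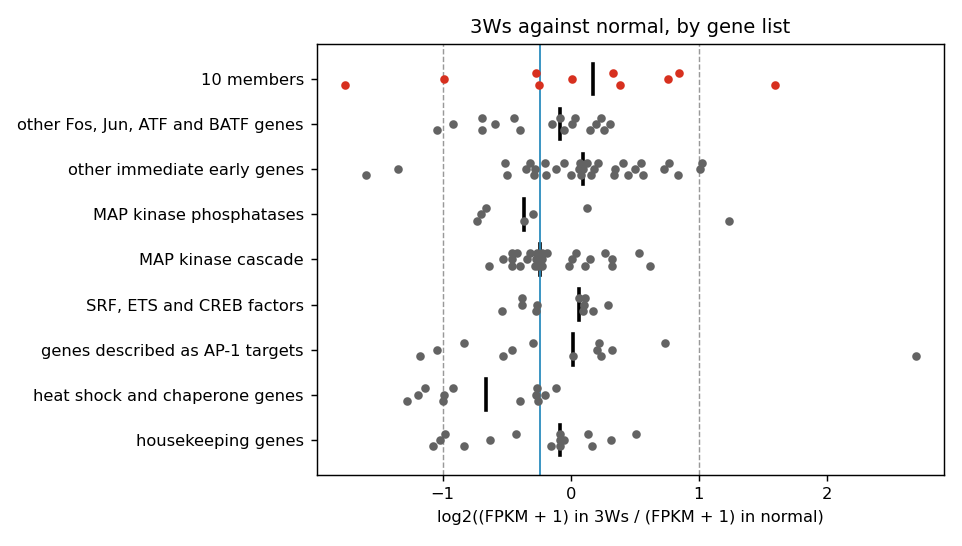
Log2 ratio of FPKM plus 1 at 3Ws against normal for each gene tested (points) of the 10 genes (red) and of 8 further lists (grey); black bars are list medians, the blue line is the median of all genes tested (-0.24) and dashed lines mark 2-fold. The 10 genes spread from -1.76 for Atf3 to 1.60 for Ier3 around a median of 0.17, and the genes of the MAP kinase cascade stay between -0.63 and 0.62.

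Upstream of these genes, MAP kinases phosphorylate the factors that switch them on. Of 31 genes of the MAP kinase cascade, 28 could be tested at 3Ws against normal and 0 were called in either direction, with a median log2 ratio of -0.24 that equals the median of all genes. Mapk14 (p38α) had 161, 168 and 138 FPKM and Map3k3 121, 127 and 146 FPKM. Against 2Ws, 1 of 29 was called lower, the p38β gene Mapk11 with 1.37, 2.35 and 0.528 FPKM, which was named after its values were seen, and after centring 0 were called. Of 12 SRF, ETS and CREB factors that bind immediate early promoters or act with them, 11 could be tested and 0 were called, with a median of 0.06. Mrtfa, a coactivator of serum response factor, had 37.2, 38.4 and 30.7 FPKM, and the acetyltransferase gene Ep300 had 33.0, 33.6 and 37.4 FPKM.

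MAP kinase phosphatases, some of them immediate early genes themselves, shut the kinases off. Of 9, 7 could be tested at 3Ws against normal, 1 was called higher and 0 lower, with a median of -0.36. The gene called higher was Dusp16, whose product acts mainly on JNK, with 8.33, 8.84 and 20.95 FPKM and a 2.52-fold difference from normal (95% interval 2.35 to 2.70). Dusp1 was by far the most abundant, with 687, 679 and 753 FPKM, and Dusp6, which acts on ERK, had 80.1, 81.8 and 48.8 FPKM, a log2 ratio of -0.70 against normal that did not reach the rule.

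Genes described as AP-1 targets in other cells had ratios in both directions. Of 21 listed, 13 could be tested at 3Ws against normal, 1 was called higher and 2 lower, and the median was 0.02. Cxcl2, a chemokine for neutrophils, had 2.90, 5.73 and 24.3 FPKM so that 3Ws stood 8.38-fold above normal (95% interval 6.83 to 10.4) and 4.25-fold above 2Ws (3.63 to 4.99). The cyclin gene Ccnd1 had 4.40, 5.53 and 1.62 FPKM and was 2.72-fold lower (2.22 to 3.35) than normal, and the protease gene Plau, named after its values were seen, had 3.70, 2.50 and 1.07 FPKM. Neither Ccnd1 nor Plau was called at 3Ws against normal after centring. The most abundant genes described as targets, Il1b and Mmp9, had 1635, 1947 and 1885 FPKM and 1097, 1218 and 1111 FPKM, with no call in any comparison.

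Heat shock and chaperone genes, which respond to protein damage and handling, had log2 ratios from -1.28 to -0.12 at 3Ws against normal. Of 13, 12 could be tested against normal, 0 were called higher and 3 lower, with a median of -0.66. These were Hsf1, the heat shock factor, with 10.2, 7.61 and 3.63 FPKM, the mitochondrial chaperonin gene Hspe1 with 5.36, 5.90 and 1.79 FPKM, and Hsp90ab1 with 86.0, 79.2 and 38.5 FPKM. The number called lower was 2 after centring, 5 with hemoglobin, immunoglobulin and mitochondrial genes left out, and 6 with a pseudocount of 0.5 or 0.1. The most abundant, Hspa8 and Hspa5, had 123, 106 and 102 FPKM and 75.0, 68.6 and 62.0 FPKM. Of 15 housekeeping genes, 0 were called higher and 2 lower, Ppia with 45.7, 41.1 and 21.2 FPKM and the ribosomal protein gene Rplp0 with 237, 235 and 116 FPKM, while Actb had 2694, 2519 and 2538 FPKM and the median log2 ratio was -0.09. Neither Ppia nor Rplp0 was called after centring, with log2 ratios of -0.90 and -0.84, or relative to Actb, with -0.995 and -0.94.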

How the data were processed

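The authors indexed GRCm38 with Bowtie2 2.2.3, aligned the reads with HISAT2 2.1.0 and deposited FPKM per Ensembl gene for 3 libraries. No source used here states the strand setting or annotation release. The study ran DEGseq, whose results were not used. The members and lists were chosen with earlier results of these data known.

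From the deposited FPKM, 26565 of 26655 genes were named through GENCODE M21, and 90 were not. Reads were recovered as FPKM times summed exon length times the library total that made products whole, which held for 20723 of 23298 genes above 0 (88.9%). For the other genes, reads are approximate. Log2 ratios used a pseudocount of 1 FPKM. Named genes were the 10 members and, per list, up to 8 called genes with at least 5 FPKM and the 2 most abundant. Steps were tested on simulated data. The work ran on Python 3.11.15 (scipy 1.17.1, pandas 2.3.3, numpy 2.4.6, matplotlib 3.10.9). Alternatives changed the pseudocount, filter, scaling, fold rule and, for calls, added an exact binomial test. No model was fitted, because each condition has 1 library. Results of some list genes are not reported here.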

Additional observations from a re-analysis of the deposited data

Results flagged for a closer look

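For 2 of the 10 genes the library at 2Ws and the library at 3Ws lay on opposite sides of the normal library. The log2 ratio of Jun was -0.42 at 2Ws and 0.76 at 3Ws against normal. That of Fosl2 was -0.11 at 2Ws and 0.39 at 3Ws. Relative to Actb the Fosl2 ratio at 2Ws was -0.01, so its distance from normal there depended on the scaling. The 2Ws library was also the one that differed in Xist and Ddx3y. Both ratios of a gene share the normal library, each condition has 1 library, and the difference between the times was not tested.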

How the results depend on the processing

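No paired analysis was possible because each condition has 1 library. The median of the 10 genes at 3Ws against normal was 0.17, and it ran from 0.01 with the filter of 5 FPKM to 0.35 after centring. That filter, which drops Egr1, took the median at 3Ws against 2Ws from 0.07 to -0.09, and centring gave 0.23. At 2Ws against normal the median ran from -0.14 with the filter to -0.03 relative to Actb. With a pseudocount of 0.5 or 0.1, 2 were higher at 3Ws against normal (Egr1 added) and 2 lower (Fosb added). With centring on the median of all genes, 2 were higher at 3Ws against normal and 0 were lower at 3Ws against 2Ws. Leaving out hemoglobin, immunoglobulin and mitochondrial genes gave 2 lower at 3Ws against normal. A 1.5-fold rule gave 3 higher (Egr1 and Jun added) and 2 lower at 3Ws against normal, and 1 lower (Atf3) at 2Ws against normal, whereas a 4-fold rule gave 0 in either direction in each comparison. The exact binomial test on reads compares libraries and not conditions. It was required on top of the 2-fold rule, so it could drop calls but not add any. It dropped no call among the 10, which is no separate check of them. Of the list counts and medians, 39 of the alternative values moved and 402 did not. A count was taken as unmoved when it stayed within 1.5-fold of the main count. A median was taken as unmoved inside a wide central part of the list's ratios, which a median seldom leaves. Over all genes, 289 were higher and 876 lower at 3Ws against normal, and 222 and 820 at 3Ws against 2Ws. After centring these were 416 and 553, and 301 and 554, which moved the share of higher calls from 24.8% to 42.9% and from 21.3% to 35.2%. With a pseudocount of 0.1 they were 459 and 1943, and 357 and 1763. A 1.5-fold rule gave 714 and 2622, and 565 and 2307, a 4-fold rule 39 and 66, and 28 and 92, a filter of 5 FPKM 180 and 499, and 137 and 431, the binomial test 187 and 675, and 145 and 625, and a pseudocount of 0.5 gave 374 and 1371, and 282 and 1249. At 2Ws against normal, 145 were higher and 137 lower, which a pseudocount of 0.1 made 275 and 263, a 1.5-fold rule 396 and 374, a 4-fold rule 12 and 15, a filter of 5 FPKM 40 and 45, and the binomial test 45 and 50. The depth limits Egr1 most, with 84 to 210 reads.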
